A study of Mus musculus with 13 samples.

Results

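A set of 10 genes whose RNA differed between double positive (DP) thymocytes labelled Sox4 conditional knockout (cKO) and wild type (WT) was followed through every array of the study: Nnat, B3gnt5, Tax1bp3, Smoc1, Car2, Tmsb10, Cd53, Ero1b, Slc28a2b and Cyth4. They are 10 of the 19752 genes measured. They were selected on their log2 intensity, because the arrays labelled DP cKO replicates 3 and 4 lay apart from DP WT replicates 3 and 5, so their DP values describe that choice and were not tested. The V2 arrays took no part in the choice. In V2 cells, 0 of the 10 genes passed the adjusted limma test of cKO against WT, nor did any gene of the 19752 (0%). Tax1bp3 was 1.96-fold lower and B3gnt5 1.48-fold lower in V2 cKO than in V2 WT, the same direction as in DP, and Tmsb10 leaned the other way in V2 from DP.

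The cells were thymocytes of 2-week-old mice, sorted by flow cytometry, with RNA of mixed sex per the labels and 1 Affymetrix array per sample. Xist, a marker of sex, was either 5.36 to 6.08 or 11.51 to 12.52 in each array, with no value between. The label of mixed sex may therefore not hold for each single array. V2 cells were immature γδ thymocytes, CD4 and CD8 negative, TCRδ and Vγ2 positive and high for HSA, the surface protein encoded by Cd24a. DP cells were CD4 and CD8 positive and belong to the αβ lineage. Both came from mice labelled WT or cKO for Sox4; titles beginning V2imm name a knockout but no gene, here taken for the same allele, and the Cre driver, the strain and the deleted stretch are not given in the sources used here. By title there were 4 WT and 4 cKO arrays of V2 cells and 2 WT and 3 cKO arrays of DP cells, with the V2 titles spelled either V2imm or immV2. Whether replicates were separate animals is not stated, so the p-values cover the spread of these samples alone, part or all of which may be technical.

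Sox4 belongs to the HMG box transcription factors, which bend DNA at short A and T rich motifs and act in immature lymphocytes and many progenitors. The DP stage is where thymocytes rearrange the TCRα chain and are screened for a useful receptor, while immature Vγ2 cells of the neonatal thymus include precursors of IL-17 producing γδ cells. The 10 genes share no pathway: they encode an imprinted membrane proteolipid (Nnat), a glycolipid enzyme (B3gnt5), a PDZ domain protein that binds β-catenin (Tax1bp3), a secreted matrix protein (Smoc1), a carbonic anhydrase (Car2), an actin monomer binder (Tmsb10), a leukocyte tetraspanin (Cd53), an oxidase of the endoplasmic reticulum (Ero1b), a nucleoside transporter (Slc28a2b) and an exchange factor for ARF GTPases (Cyth4).

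The DNA just upstream of 4 of these genes is given because a Sox motif would be looked for there first. The 4 stretches also differ in CpG content. Each is the 250 bases before the RefSeq gene start in GRCm38.p6, 5′ to 3′ on the gene's strand, with every CG in capitals. The stretches lie at chr2:157559828-157560077 on the plus strand (Nnat), chr16:19759984-19760233 plus (B3gnt5), chr11:73176833-73177082 plus (Tax1bp3) and chr3:106790150-106790399 minus (Cd53). The first 3 genes were lower and Cd53 was higher in DP cKO. Ero1b, also higher and not printed here, held 14 CG pairs in such a stretch, against 2 for Cd53.
Nnat: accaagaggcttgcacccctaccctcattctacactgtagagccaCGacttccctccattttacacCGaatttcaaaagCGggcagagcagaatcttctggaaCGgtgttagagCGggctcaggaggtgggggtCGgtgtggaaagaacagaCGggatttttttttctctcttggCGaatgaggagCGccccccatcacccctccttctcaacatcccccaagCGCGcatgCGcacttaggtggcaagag
B3gnt5: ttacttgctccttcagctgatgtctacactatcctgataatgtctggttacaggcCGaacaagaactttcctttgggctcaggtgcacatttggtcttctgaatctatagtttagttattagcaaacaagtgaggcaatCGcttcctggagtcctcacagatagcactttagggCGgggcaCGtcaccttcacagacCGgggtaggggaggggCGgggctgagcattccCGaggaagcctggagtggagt
Tax1bp3: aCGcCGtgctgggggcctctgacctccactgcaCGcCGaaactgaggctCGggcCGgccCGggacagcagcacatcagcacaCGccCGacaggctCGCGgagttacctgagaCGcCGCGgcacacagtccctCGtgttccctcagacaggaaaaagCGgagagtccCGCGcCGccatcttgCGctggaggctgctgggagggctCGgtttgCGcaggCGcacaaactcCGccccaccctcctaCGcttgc
Cd53: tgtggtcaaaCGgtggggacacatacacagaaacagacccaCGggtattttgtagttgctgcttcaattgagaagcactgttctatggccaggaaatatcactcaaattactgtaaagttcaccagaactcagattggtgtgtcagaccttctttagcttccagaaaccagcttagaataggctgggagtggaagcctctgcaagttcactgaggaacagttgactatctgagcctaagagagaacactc

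Values are the log2 of the RMA intensity of each gene's brightest probe set. RMA is a summary of all probes of a gene after background correction and normalisation, and levels were compared between arrays and never between genes. Array medians were 122.2 to 137.2 on the linear scale. Sox4 itself was 9.37 and 8.55 in DP WT against 8.74 and 8.68 in DP cKO, which overlap. V2 WT arrays had Sox4 at 8.71, 8.64 and 9.68, and V2 cKO arrays at 8.07, 9.60, 8.11 and 8.23, so the array labelled V2imm cKO replicate 5 lay within the WT range and the other 3 below it. The place of its probe set relative to the deleted stretch is not given, so arrays are named by their labels throughout. There were 2 arrays with the other population's markers: the one labelled immV2 WT replicate 5 had Cd4 at 12.65, Rag1 at 13.02 and Sox13 at 7.73, and the one labelled DP cKO replicate 5 had Cd4 at 7.47, Rag1 at 6.87 and Sox13 at 11.49. In the other DP arrays Cd4 was 12.36 to 12.62, and in the other V2 arrays 6.71 to 7.36. Both are shown apart, and all differences are from a limma fit of the other 11 arrays with a term for the title spelling, unless the 13 arrays as labelled are named.

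**Figure D1:**
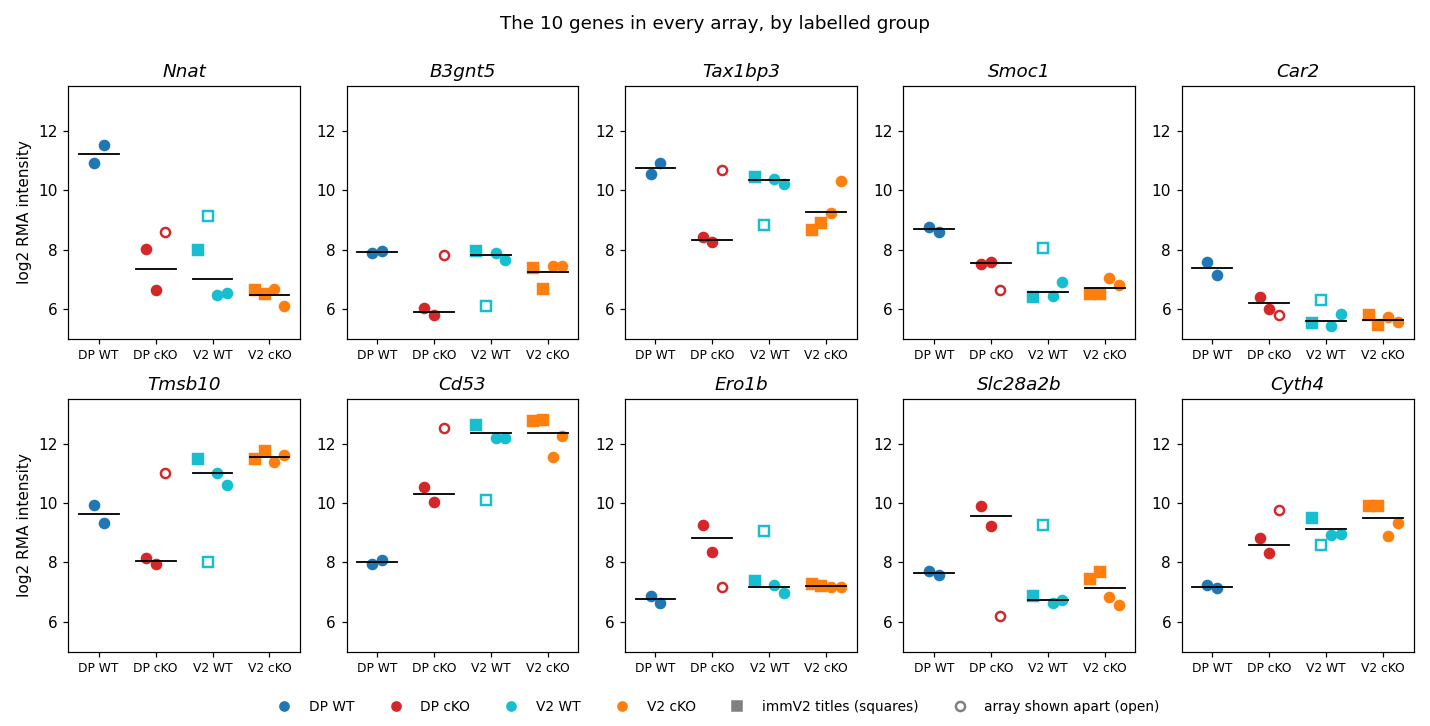
Log2 RMA intensity of each of the 10 genes in all 13 arrays, with 1 panel per gene and 1 column per labelled group. Points are arrays, squares have immV2 titles, open symbols are the 2 arrays shown apart, and lines are means of the filled points. The 2 DP cKO arrays lie away from the 2 DP WT arrays in each panel because the genes were chosen so, while V2 WT and V2 cKO overlap for every gene but B3gnt5.

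Nnat, a paternally expressed imprinted gene for a small membrane protein of the endoplasmic reticulum, had the widest DP difference of the 10. DP WT arrays had 10.91 and 11.52, and DP cKO arrays 8.03 and 6.64. The WT arrays were high and the cKO arrays low and unlike each other, at a log2 difference of -3.88 (SE 0.42), 14.75-fold lower. V2 cells had the low state in either genotype: 6.48, 6.55 and 7.98 in WT and 6.66, 6.09, 6.65 and 6.51 in cKO. The 1 WT array above the rest, at 7.98, has an immV2 title, and 6 of the 7 V2 arrays were below their array's median intensity. V2 cKO minus WT was -0.64 (SE 0.33, limma adjusted p = 0.999). Blcap, the gene whose intron holds Nnat, stayed between 7.67 and 8.30 in all 13 arrays, with differences of -0.04 (SE 0.17) in DP and -0.06 (SE 0.13) in V2.

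B3gnt5 encodes the N-acetylglucosaminyltransferase that starts the lacto-series of glycosphingolipids. DP WT arrays had 7.87 and 7.96, and DP cKO arrays 6.04 and 5.79. The WT arrays were high and the cKO arrays low (-2.0, SE 0.24, 3.99-fold lower), and in 1 DP cKO array the gene was under the lower quartile of intensities. V2 WT arrays were at the DP WT level, at 7.89, 7.64 and 7.97, with V2 WT minus DP WT at -0.10 (SE 0.22). V2 cKO arrays had 7.45, 7.45, 7.39 and 6.68. Every V2 cKO array was thus below every V2 WT array, and the array furthest down was immV2 cKO replicate 4. The V2 difference was -0.56 (SE 0.18, limma adjusted p = 0.904), rank 204 of all genes by p, and over 26 settings it ran from -0.94 to -0.16 with adjusted p from 0.186 to 1.

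Tax1bp3 encodes a small protein made of little more than a PDZ domain, known to bind β-catenin and hold down its activity in transcription. It was 10.54 and 10.93 in DP WT and 8.41 and 8.26 in DP cKO, a difference of -2.40 (SE 0.36, 5.28-fold lower). V2 WT arrays were tightly grouped at 10.37, 10.20 and 10.44. V2 cKO arrays were not, at 9.25, 10.30, 8.66 and 8.89: 3 were well below all WT arrays and V2imm cKO replicate 5 was inside the WT range. The difference over all 4 was -0.97 (SE 0.28, limma adjusted p = 0.617), rank 127 of all genes. The array inside the WT range is also the V2 cKO array with Sox4 at the WT level. It was not at the WT level for every gene. Sox13 was 9.99 in it and 11.01 to 11.16 in V2 WT, and St3gal6 was 7.35 against 8.96 to 9.44. Bcl9, at 10.44, was inside its V2 WT range of 10.29 to 10.59. Without V2imm cKO replicate 5 the Tax1bp3 difference was -1.35 (SE 0.19, limma adjusted p = 0.0183). Tax1bp3 was then the 1 member of the 10 that passed, among 44 genes (0.223% of those tested). Over 26 settings it ran from -1.66 to -0.51 with adjusted p from 0.0183 to 1, so the call rests on that array being left out. Its 2 probe sets, whose listed transcripts are the same, differed by 0.00 to 0.10 across arrays.

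**Figure D2:**
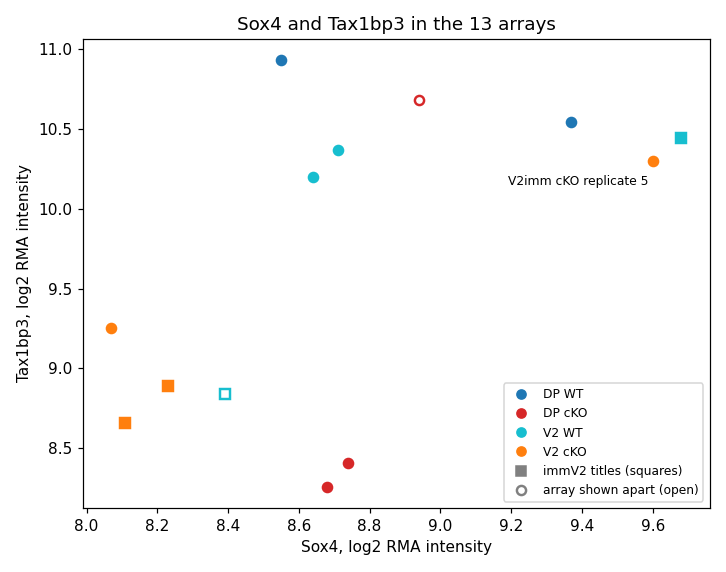
Log2 RMA intensity of Sox4 (x axis) against Tax1bp3 (y axis) in each of the 13 arrays, coloured by labelled group, with squares for immV2 titles and open symbols for the 2 arrays shown apart. The V2 cKO arrays other than V2imm cKO replicate 5 lie at Sox4 8.07 to 8.23 and Tax1bp3 8.66 to 9.25, that array lies with the WT arrays at 9.60 and 10.30, and the DP cKO arrays have low Tax1bp3 at Sox4 8.68 and 8.74.

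Smoc1, which encodes a secreted calcium-binding protein of the SPARC family, and Car2, which encodes the cytosolic carbonic anhydrase II, had the smallest differences among the genes lower in DP cKO. Smoc1 was 8.75 and 8.61 in DP WT and 7.50 and 7.58 in DP cKO (-1.14, SE 0.18). Car2 was 7.59 and 7.16 against 6.39 and 6.01 (-1.18, SE 0.20). Both were lower still in V2 cells. Smoc1 was 6.44, 6.91 and 6.41 in V2 WT and 7.06, 6.81, 6.51 and 6.50 in V2 cKO, all under the median of their array. Car2 was 5.43, 5.84 and 5.52 in V2 WT and 5.73, 5.55, 5.79 and 5.46 in V2 cKO, and all 7 were under the lower quartile of their array. Groups overlapped for both, at 0.19 (SE 0.14, limma adjusted p = 0.999) for Smoc1 and 0.05 (SE 0.15, limma adjusted p = 0.999) for Car2.

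Tmsb10 encodes thymosin beta 10, which binds actin monomers. DP WT arrays had 9.93 and 9.32 and DP cKO arrays 8.16 and 7.96, a difference of -1.57 (SE 0.27, 2.97-fold lower). V2 WT arrays, at 10.60 and 11.47 with the third between them, were above all DP arrays, by 1.45 over DP WT. V2 cKO arrays had 11.37, 11.63, 11.47 and 11.75. The groups overlapped, with the cKO mean higher, opposite in sign to DP, and the difference was 0.47 (SE 0.21, limma adjusted p = 0.999). It was 0.70 (SE 0.26) in the V2imm and 0.14 (SE 0.32) in the immV2 arrays, and the difference between these did not pass (0.56, SE 0.42, limma adjusted p = 1). Its 2 probe sets differed by 0.21 to 0.31.

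Cd53, a tetraspanin of the leukocyte surface, had the largest DP difference of the 4 genes higher in cKO. It was 7.95 and 8.08 in DP WT and 10.54 and 10.04 in DP cKO (2.28, SE 0.26, 4.84-fold higher). The DP cKO level was still under that of V2 cells, which had 12.21, 12.21 and 12.62 in WT and 11.56, 12.26, 12.77 and 12.80 in cKO. The V2 groups overlapped, at -0.12 (SE 0.20, limma adjusted p = 0.999). Cyth4, a cytohesin that loads GTP onto ARF proteins in leukocytes, was also lowest in DP WT and next lowest in DP cKO. It was 7.24 and 7.13 in DP WT, 8.84 and 8.32 in DP cKO, 8.94, 8.96 and 9.50 in V2 WT and 8.90, 9.32, 9.90 and 9.90 in V2 cKO. Its DP cKO arrays thus came to just under the V2 WT arrays, with DP differing by 1.40 (SE 0.22, 2.63-fold higher) and V2 by 0.25 (SE 0.17, limma adjusted p = 0.999).

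Ero1b and Slc28a2b were highest in DP cKO of all 4 groups. Ero1b, which encodes an oxidase that renews the disulfide donor for protein folding, was 6.86 and 6.65 in DP WT and 9.27 and 8.35 in DP cKO (2.06, SE 0.24, 4.17-fold higher). Its V2 arrays spanned only 6.96 to 7.36 in WT and 7.16 to 7.27 in cKO, and the V2 difference was -0.01 (SE 0.19, limma adjusted p = 0.999). Slc28a2b, a member of the sodium-coupled nucleoside transporters, was 7.70 and 7.59 in DP WT and 9.89 and 9.24 in DP cKO (1.92, SE 0.24, 3.80-fold higher). It was 6.62, 6.73 and 6.88 in V2 WT and 6.84, 6.58, 7.43 and 7.67 in V2 cKO. The 2 immV2 cKO arrays were above all V2 WT arrays and the 2 V2imm cKO arrays were not, and the V2 difference was 0.29 (SE 0.18, limma adjusted p = 0.999).

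**Figure D3:**
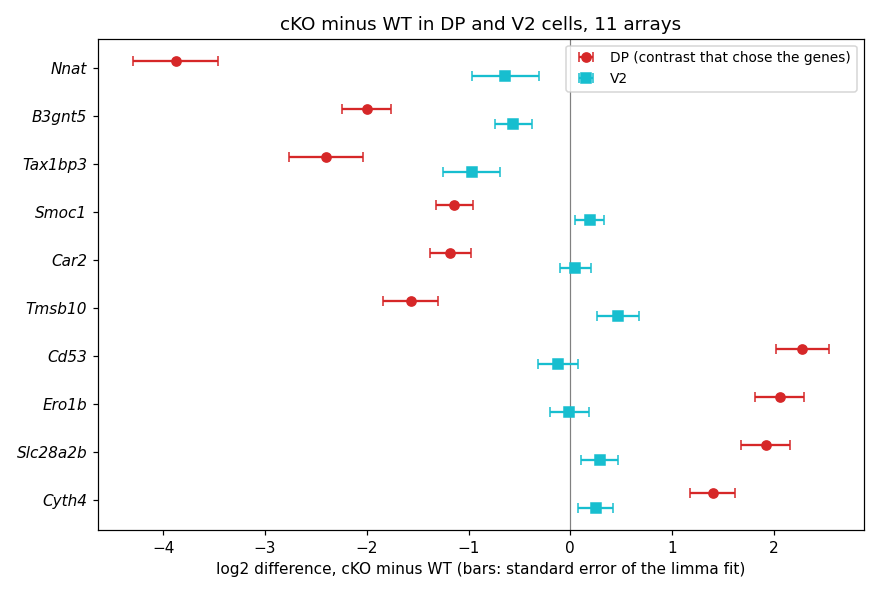
Log2 difference, cKO minus WT, of the 10 genes in DP cells (red circles) and V2 cells (cyan squares) in the fit of 11 arrays, with bars for the standard error. DP differences run from -3.88 for Nnat to 2.28 for Cd53 by choice of the genes, and V2 differences from -0.97 for Tax1bp3 to 0.47 for Tmsb10.

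Read together, the V2 values of the 10 genes were spread on both sides of 0. By limma with adjustment over all genes, 0 of 10 members and 0 of 19752 genes (0%) passed in V2, and the smallest adjusted p of any gene was 0.0572. At an unadjusted p under 0.05, 3 of 10 members passed (B3gnt5, Tax1bp3 and Tmsb10) against 757 genes, 3.83% of all. One member, B3gnt5, had all V2 cKO arrays below all V2 WT arrays, as did 348 genes (1.76%). None of the 10 had them all above, as did 333 genes (1.69%). In V2 5 of 10 members had the sign they had in DP, 2 of the 4 that were higher and 3 of the 6 that were lower, and 52.3% of all genes did. The median V2 difference was 0.122 over the members higher in DP cKO, -0.259 over those lower and 0.008 over all genes. The median size of the V2 difference was 0.271 over the 10 and 0.102 over all genes, which were not matched for level or spread. A p above the threshold does not show that the V2 levels were alike.

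For the background to the choice itself, genes were counted whose 2 DP cKO arrays were both above both WT arrays with means at least 1 log2 unit apart. There were 24 (0.122%), 4 of them members, and in the other direction 38 (0.192%), 6 of them members. Nothing is read from these counts, since the DP arrays chose the genes. With DP cKO replicate 5 and immV2 WT replicate 5 put back under their labels, the DP difference of Slc28a2b was 0.80 (SE 0.86) and that of Tmsb10 -0.58 (SE 0.94), while the other 8 ran from -3.46 for Nnat to -1.31 for Car2 and from 1.51 for Ero1b to 3.03 for Cd53. In V2 the 13 arrays gave -1.06 (SE 0.45) for Nnat, 1.28 (SE 0.73) for Tmsb10, -0.69 (SE 0.49) for Tax1bp3 and -0.16 (SE 0.43) for B3gnt5, each with a limma adjusted p of 0.996.

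The V2 values were also read within each title spelling. In the V2imm arrays, 2 against 2, cKO minus WT was -0.51 (SE 0.31) for Tax1bp3, -0.32 (SE 0.22) for B3gnt5 and -0.14 (SE 0.37) for Nnat. In the immV2 arrays, with 1 WT array, it was -1.66 (SE 0.38), -0.94 (SE 0.27) and -1.40 (SE 0.45). Sox4 was 0.16 in V2imm and -1.51 in immV2. The difference between the spellings was 1.15 (SE 0.49) for Tax1bp3 and 1.26 (SE 0.59) for Nnat. After adjustment in limma, 0 of the 10 passed (adjusted p = 1 for each), and 1 gene of all did (0.00506%), Gm1966, named here after its values were seen. Since immV2 has 1 WT array in this fit, no count at an unadjusted p is given for the difference between the spellings. Whether the spelling marks a batch is not stated. Xist was 5.36 to 6.08 in the 3 immV2 arrays of the fit, 5.55 in V2imm WT replicate 4 and 11.82 to 11.96 in the other 3 V2imm arrays, so the spelling also goes in part with a marker of sex. Cd24a, whose product HSA was a sort marker, was 11.67 in the immV2 WT array and 10.38 and 9.46 in the immV2 cKO arrays, and 12.21 and 12.02 against 12.31 and 11.61 in the V2imm arrays. The part of Cd24a and of sex in the difference between the spellings was not tested.

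The array labelled immV2 WT replicate 5, which has the DP marker genes, was not used to choose the members. It had 9.13 for Nnat, 6.09 for B3gnt5, 8.84 for Tax1bp3, 8.04 for Smoc1, 6.30 for Car2 and 8.01 for Tmsb10. It had 10.12 for Cd53, 9.05 for Ero1b, 9.25 for Slc28a2b and 8.60 for Cyth4. All 10 members were nearer the DP cKO mean than the DP WT mean. So were 52 of the 62 genes (83.9%) that are apart in DP by the count above, a set that holds the 10 members. The members thus stood near a background of which they are part. For Cd53, Ero1b, Slc28a2b, Car2, Cyth4 and Tmsb10 it lay within the range of the 2 DP cKO arrays. Nnat and Smoc1 were close to midway, at 0.54 and 0.56 of the way from the WT to the cKO mean, and Tax1bp3 (0.79) and B3gnt5 (0.91) were further along. Its Sox4 was 8.39, under all 4 DP arrays. The array labelled DP cKO replicate 5, which has the V2 marker genes, lay within the range of the 7 V2 arrays for B3gnt5 (7.81), Cd53 (12.54), Ero1b (7.16), Smoc1 (6.64), Car2 (5.81), Cyth4 (9.77) and Tmsb10 (11.02). It lay above that range for Nnat (8.60) and Tax1bp3 (10.68) and below it for Slc28a2b (6.21). In this array 8 members were nearer the V2 WT mean and 2, Car2 and Cyth4, nearer the V2 cKO mean. Tax1bp3 was 0.34 from the WT and 1.40 from the cKO mean. For others, such as Cd53 with both means at 12.35, the means were too close for the side to carry weight. The share of all genes nearer V2 WT was not counted. No array was moved to another group.

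**Figure D4:**
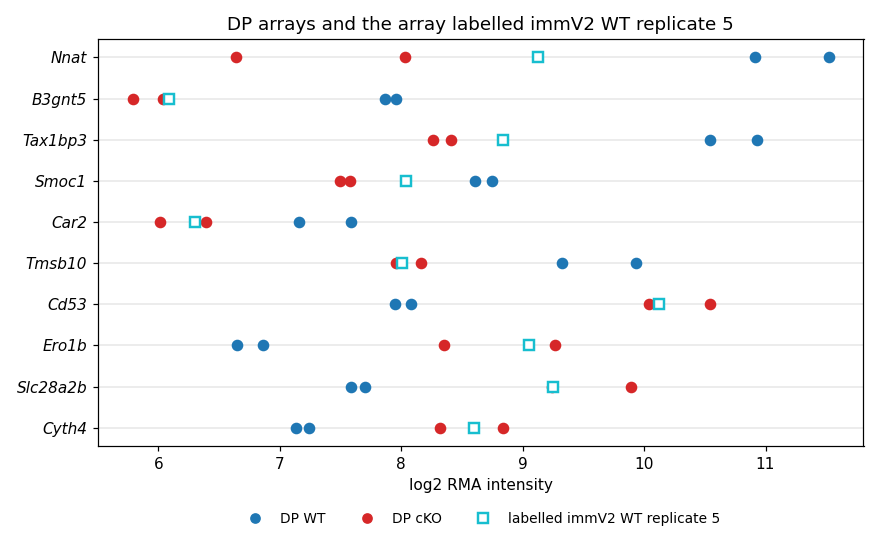
Log2 RMA intensity of the 10 genes (1 row each) in the 2 DP WT arrays (blue), the 2 DP cKO arrays (red) and the array labelled immV2 WT replicate 5 (open squares). The open squares lie with or towards the red points in every row, with Nnat and Smoc1 near the middle, and for Slc28a2b the square at 9.25 covers the DP cKO point at 9.24.

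The other genes of the members' families were read in the same fit. Lists of 10 families and pathways held 246 measured genes of 260. In V2, 0 of 246 passed the adjusted limma test, and 3 were higher and 4 lower at an unadjusted p under 0.05, which is 2.85% of them against 3.83% of all genes. In DP, 0 of 246 had cKO and WT arrays apart with means at least 1 log2 unit apart, against 0.314% of all genes, a share that would give under 1 gene of 246. Just under that difference were Slc28a2, Car3, Tspan32 and Dcn. Of 7 nucleoside transporter genes, Slc28a2, the close relative and next neighbour of Slc28a2b, came nearest. It was 8.20 and 7.99 in DP WT and 9.10 and 9.07 in DP cKO (0.99, SE 0.18), and 0.41 higher in V2 cKO (SE 0.14, limma adjusted p = 0.985). How far the 2 transporters' probes tell their transcripts apart is not given, so this pair is uncertain.

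Among 36 genes of glycosphingolipid synthesis, St3gal6, a sialyltransferase, had the smallest p in V2 at -1.11 (SE 0.25, limma adjusted p = 0.245) and was -0.69 (SE 0.32) in DP, while B3gnt2 was 0.36 (SE 0.21) in DP. Of 34 cytohesin and ARF regulator genes, Psd3, another ARF exchange factor, was -0.67 (SE 0.16, limma adjusted p = 0.312) in V2 and -0.71 (SE 0.21) in DP, whereas Cyth1 was -0.11 and -0.14. Of 23 tetraspanins, Tspan32 was 0.74 (SE 0.23, limma adjusted p = 0.83) in V2 and 0.97 (SE 0.30) in DP, and Cd37 and Cd81 were -0.03 and -0.37 in DP. None of these passed the adjusted threshold. Of 15 carbonic anhydrases, Car3, which lies beside Car2, was 0.97 (SE 0.15) in DP, opposite to Car2. Car3 is also on the skeletal muscle list described with the markers, and was 5.61 in the array labelled immV2 WT replicate 5, and Car1 was -0.13. Ero1a was 0.44 (SE 0.24) in DP and Pdia4 had the smallest V2 p of 38 folding genes, at -0.42 (SE 0.18, limma adjusted p = 0.999). Smoc2 (0.14) and Sparc (0.53) did not share the lower level of Smoc1 in DP, and Tmsb4x, the other main thymosin, was -0.33 (SE 0.26) in DP and 0.37 (SE 0.21) in V2, the same signs as Tmsb10. Of 28 thymosin and actin binder genes the widest DP difference was that of Dstn at -0.69 (SE 0.40). Of 32 Wnt and β-catenin genes the widest was Bcl9 at -0.71 (SE 0.27), and of 25 imprinted genes Dcn at 0.97 (SE 0.18).

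Marker lists of other cells, chosen with earlier results of these data known, were read in the same arrays. The mean level of 30 skeletal muscle genes was 6.71 to 7.04 in DP WT and 7.23 to 7.68 in DP cKO. Of the 30, 26 were above WT and 5 were apart by 1 log2 unit or more, against 0.314% of all genes. Muscle Ckm was 8.46 and 7.48 in DP WT and 9.32 and 8.61 in DP cKO. In the array labelled immV2 WT replicate 5 the muscle mean was 6.54 and Ckm 7.46. The mean of 22 mature and single positive thymocyte genes was 8.13 to 8.17 in DP WT, 8.33 to 8.47 in DP cKO and 8.42 in the array shown apart. That of 15 double negative thymocyte genes, an earlier stage, moved the same way. It was 7.12 to 7.32 in DP WT, 7.39 to 7.46 in DP cKO and 7.50 in that array. Cd24a was 11.97 and 12.27 in DP WT, 10.89 and 10.93 in DP cKO and 10.96 in that array. The part of the muscle genes, the mature genes, the double negative genes and Cd24a in the members' DP values was not tested. Erythroid genes, Car1 among them, had means of 6.36 to 6.41 in DP WT and 6.35 to 6.40 in DP cKO. DP WT replicate 5 had Xist at 12.42 and the other 3 DP arrays at 5.52 to 5.61. With Xist as a covariate the 10 DP differences ran from -3.61 for Nnat to 2.26 for Cd53, by choice of the genes. In V2 the mean of 16 γδ genes was 9.58 to 9.66 in WT and 8.79 to 9.45 in cKO. Of the 16, 0 passed the adjusted limma threshold. At an unadjusted p under 0.05, 8 were lower and 1 higher, against 3.83% of all genes in either direction. Of 22 mature and single positive genes 16 were above WT in V2 cKO, 4 higher and 1 lower at that p, with means of 9.33 to 9.91 in WT and 9.19 to 10.38 in cKO. Of 22 macrophage and dendritic cell genes 20 were above WT, 1 at that p, with means of 6.10 to 6.98 in WT and 6.12 to 7.41 in cKO. The share of all genes above WT was not counted. Over all genes the median difference was 0.008 in V2 and 0.003 in DP. The part of these marker lists in the members' V2 values was not tested. In such bulk samples fewer cells of a type and less RNA per cell cannot be told apart.

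The genes with the most similar levels over the 11 arrays, by the root mean square distance of centred log2 values, were in part other members. Smoc1 and Car2 were each other's nearest gene, at a distance of 0.23. B3gnt5 was second nearest to Tax1bp3 (0.46), after Ccnjl (0.42), and the nearest to B3gnt5 was Tgif1 (0.32), at -1.41 in DP and -0.65 in V2. The nearest to Slc28a2b were Cdc14b (0.42) and Slc28a2 (0.44). The nearest to Ero1b were Car3 (0.38) and Tnnt3 (0.39), both on the skeletal muscle list. The nearest to Cyth4 was Zfp831 (0.30), to Cd53 Gria3 (0.45) and to Tmsb10 Vim (0.51). The nearest to Nnat, Trav7d-4, was at 1.07. All these share the arrays that chose the members.

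Genes beside the members were read next. Of 60 measured neighbours, 3 on each side of each member, 0 were apart in DP with means at least 1 log2 unit apart. The share over all genes was 0.314%, so 0 of 60 is near that background and says nothing particular about the neighbours. The widest DP differences were those of Slc28a2 (0.99), Car3 (0.97), Gpr137b-ps near Ero1b (-0.96) and Klhl24 near B3gnt5 (-0.89), and Klhl24 was -0.92 (SE 0.18) in V2. RefSeq promoters, 250 bases before to 50 after the gene start, were matched for 8 of the 10 members, without Smoc1 and Car2. The Sox motifs AACAAAG and AACAAT, searched on both strands, were in 0 of these 8. Of 27025 promoters of that length 5.79% hold the first and 10.9% the second, so a count of 0 among 8 is only a statement on these letters in this window. The 250 upstream bases of the members lower in DP cKO held 25 CG pairs for Tax1bp3, 14 for Tmsb10, 12 for Nnat and 7 for B3gnt5. Those of the members higher in DP cKO held 14 for Ero1b, 4 for Cyth4, 2 for Cd53 and 0 for Slc28a2b. The median over all promoters, in the same 250 bases, was 6, so the 4 lower genes were above it and 3 of the 4 higher genes below it, which is a description of 8 sequences.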

How the data were processed

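The authors deposited probe set intensities on a linear scale (6.16 to 23800), for which the submitters' processing notes name RMA and Affymetrix Power Tools without versions. Of 24922 probe sets, 21425 had 1 symbol in the platform annotation, 1399 several and 2098 none listed. The brightest on average stood for each gene, which left 19752 genes. The log2 was fitted with limma 3.58.1 in R 4.3.3 (lmFit, eBayes with intensity trend) over 11 arrays with 4 group means and the title spelling as covariate. Tests were two-sided, adjusted by Benjamini-Hochberg over all genes at 0.05. A fit with 6 groups gave the values within each spelling.

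The members, and the lists of families and markers, were chosen with earlier results of these data known. Only V2 comparisons were tested, and DP values are descriptions. Named besides the members were Sox4, list genes with the smallest p in V2 or the widest difference in DP, close relatives and the nearest patterns; other genes were named after their values were seen. Promoters came from RefSeq (GRCm38.p6). Precision is limited by the number of arrays, which carry no read depth. Alternatives were the 13 arrays, other normalisations, filters, moderation, covariates, blocks and left-out arrays. Figures used matplotlib 3.10.9.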

Additional observations from a re-analysis of the deposited data

Results flagged for a closer look

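Among 20 sets of 4 arrays under 1 label, in which chance alone flags about 1 in 20, 4 held an array far from the other 3 (Dixon's gap over range, at the 95% level). B3gnt5 was 6.68 in immV2 cKO replicate 4, below the other arrays labelled V2 cKO (gap over range 0.92). In the array labelled immV2 WT replicate 5, Cd53 was 10.12 (0.84), Slc28a2b 9.25 (0.90) and Tax1bp3 8.84 (0.85), each apart from the other arrays labelled V2 WT. That array carried the DP marker genes and was left out of the fit of 11 arrays. B3gnt5 in V2 was -0.56 (SE 0.18) with immV2 cKO replicate 4 and -0.40 (SE 0.15) without it.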

How the results depend on the processing

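No gene passed in V2 in the fit of 11 arrays, but the count moved with the setting. It was 13 with quantile normalisation, 6 with robust moderation, and 8 and 1 with genes of mean log2 at least 6 and 7. In the fit of 6 groups it was 5 for cKO minus WT within V2imm. Within immV2 it was 9, which rests on 1 WT array. Leaving out immV2 WT replicate 3 repeated the V2imm result, with the same 5 as its count. The 26 settings named for B3gnt5 and Tax1bp3 include it under both names. With 1 array left out the count was 0 to 44. The 44 came without V2imm cKO replicate 5, the 1 setting in which a member passed (0 to 1 members over left-out arrays). Residuals of same-numbered arrays correlated at -0.35, -0.22 and -0.50 in V2 and 0.18 in DP. With so few arrays sharing each group mean, these values cannot show whether same-numbered arrays were pairs. The numbers were not taken as pairs, and with a replicate block 34 genes and 0 members passed. Between the spellings 1 gene passed, and 0 with the 13 arrays, quantile normalisation or no intensity trend.

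Of the members' V2 values under an alternative, 232 kept sign and side of the threshold and 16 changed sign, all of the latter in Cd53, Slc28a2b, Smoc1, Car2 and Ero1b. With the 13 arrays Cd53 was 0.56, Slc28a2b -0.24, Smoc1 -0.23 and Car2 -0.14. Ero1b was 0.02 without the spelling term, 0.00 with quantile normalisation, 0.02 with the replicate block and 0.05 with Xist as covariate. Within the fit of 6 groups Ero1b was 0.07 in V2imm and Cd53 was 0.16 in immV2. With 1 array left out Ero1b ran from -0.10 to 0.07, Car2 from -0.05 to 0.16 and Cd53 from -0.30 to 0.10, and B3gnt5 in V2 WT minus DP WT from -0.35 to 0.02. Without immV2 WT replicate 3 Nnat was -0.14, B3gnt5 -0.32, Tax1bp3 -0.51, Slc28a2b 0.04 and Cyth4 0.15. These equal the values within V2imm in the fit of 6 groups and are not a separate result. Smoc1 was 0.06 without V2imm WT replicate 4, 0.29 without V2imm WT replicate 5 and 0.11 without V2imm cKO replicate 4, which left Cyth4 at 0.38. With the 13 arrays the difference between spellings was -0.32 for B3gnt5, 0.56 for Slc28a2b, 0.29 for Car2 and -1.17 for Tmsb10. The cause of these shifts was not tested. DP differences kept their sign in every setting run, which the choice of the genes on these arrays largely fixed beforehand.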
